A study of Mus musculus with 8 samples.

Results

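The metallothioneins and the genes that carry or sense zinc were followed in the livers of 8 male C57BL/6 mice, 4 of genotype MTAP+/- and 4 of genotype MTAP+/+. The 10 genes were the metallothioneins Mt1 and Mt2, the sensor Mtf1, the exporters Slc30a1 and Slc30a10, the importers Slc39a4, Slc39a8, Slc39a10 and Slc39a14, and the copper importer Slc31a1. They were chosen by name, and every probe set that the array annotation ties to exactly 1 of these symbols was kept apart, which gave 23 of the 45037 probe sets tested and 10 of 18193 genes. The mice were between 92 and 101 days old, and each liver was read on 1 Affymetrix array. MTAP+/- mice carry 1 altered copy of Mtap, the gene of the enzyme that recycles methylthioadenosine, and the sources used here do not say how that copy was altered. All levels are RMA signals on the log2 scale, so a difference of 1 unit is a doubling, and every difference is MTAP+/- minus MTAP+/+. In a whole liver, fewer cells of a type and less RNA per cell cannot be told apart.

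Metallothioneins are small cysteine-rich proteins that bind zinc, copper and cadmium, and hepatocytes make large amounts of them when metals, glucocorticoids or inflammatory cytokines reach the liver. The zinc finger protein encoded by Mtf1 senses free zinc, enters the nucleus and binds metal response elements in the promoters of Mt1, Mt2 and Slc30a1. Transporters of the SLC30 family move zinc or manganese out of the cytosol, and those of the SLC39 family bring zinc, and some of them also iron or manganese, into it.

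Mt2 and Mt1 lie side by side on chromosome 8 in the RefSeq gene table (GRCm38.p6), with no other listed gene between them. The promoters of both are shown because among the members these 2 genes had the largest differences between the genotypes, and those of the exporters Slc30a1 and Slc30a10 because they differed next, in opposite directions. Each sequence is RefSeq's, on the plus strand of GRCm38.p6, from 250 bases before to 50 bases after the annotated start. The windows are chr8:94178839-94179138 for Mt1, chr8:94172368-94172667 for Mt2, chr1:191906531-191906830 for Slc30a1 and chr1:185454598-185454897 for Slc30a10. Capitals mark the core of the metal response element, searched as TGCACNC or TGCGCNC on both strands.
Mt1: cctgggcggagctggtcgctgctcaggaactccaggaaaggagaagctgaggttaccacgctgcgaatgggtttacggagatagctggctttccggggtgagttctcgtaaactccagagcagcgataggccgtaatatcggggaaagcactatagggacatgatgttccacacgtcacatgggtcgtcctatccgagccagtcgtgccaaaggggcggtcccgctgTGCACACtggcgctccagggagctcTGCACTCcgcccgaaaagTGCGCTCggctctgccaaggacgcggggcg
Mt2: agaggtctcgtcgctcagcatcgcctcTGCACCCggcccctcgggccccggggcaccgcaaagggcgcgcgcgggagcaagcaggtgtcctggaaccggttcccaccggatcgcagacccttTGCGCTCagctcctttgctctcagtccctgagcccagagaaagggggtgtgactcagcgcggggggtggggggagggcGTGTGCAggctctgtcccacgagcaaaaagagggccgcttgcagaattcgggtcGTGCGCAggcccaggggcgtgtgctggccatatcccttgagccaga
Slc30a1: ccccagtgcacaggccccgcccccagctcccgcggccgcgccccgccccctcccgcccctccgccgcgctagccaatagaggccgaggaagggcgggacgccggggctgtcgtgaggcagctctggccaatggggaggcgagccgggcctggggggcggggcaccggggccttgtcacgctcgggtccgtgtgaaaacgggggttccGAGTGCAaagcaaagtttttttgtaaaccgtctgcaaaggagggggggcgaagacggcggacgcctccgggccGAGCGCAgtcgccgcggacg
Slc30a10: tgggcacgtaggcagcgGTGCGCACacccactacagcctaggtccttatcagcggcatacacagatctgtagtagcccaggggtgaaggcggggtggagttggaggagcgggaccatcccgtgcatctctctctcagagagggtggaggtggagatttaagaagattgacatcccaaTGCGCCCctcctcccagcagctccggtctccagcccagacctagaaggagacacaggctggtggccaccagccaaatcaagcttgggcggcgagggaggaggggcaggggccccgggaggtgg

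The Mt2 window held 4 matches and the Mt1 window 3. Matches of 4 or more were found in 0.517% of the 32851 promoters searched, of 3 or more in 1.97% and of at least 1 in 25.7%. In Mt2, 3 of the 4 matches lay before the annotated start, while in Mt1 the match TGCACAC ended 17 bases before it and the other 2 lay just after it. Slc30a1 held 2 matches, and Slc30a10 held 3, of which the 2 farthest from the start were the same letters read on both strands and overlapped. Among the other members with a promoter in the table, Mtf1, Slc31a1 and Slc39a10 held no match and 1 of 2 Slc39a8 windows held 1. Slc39a4 and Slc39a14 had no entry. An antioxidant element, searched as TGACNNNGC on both strands, was matched once each in Mt2 and Slc30a1 and in 12.4% of all promoters. Neither the TATA box TATAAA, the E-box CACGTG nor the STAT motif TTCNNNGAA occurred in these 4 windows, which says nothing of sequence outside them. Positions count from the RefSeq start, which may lie upstream of commonly used start sites of Mt1 and Mt2, so before and after hold for that start alone. A match is a run of letters and was not tested for binding.

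The labels were borne out by Mtap, whose 4 probe sets were lower in all 4 MTAP+/- livers (log2 differences between -1.63 and -0.80, adjusted p from limma between 0.00443 and 0.0414). The mean of 7 hepatocyte markers overlapped between the genotypes (12.38 to 12.67 in MTAP+/- and 12.40 to 12.56 in MTAP+/+ livers). Of these markers, Alb, Apoa1 and Fabp1 read between 14.12 and 14.52, near the highest signal of all (14.72), where a change may not show. The arrays were alike as a whole, with correlations between 0.9834 and 0.9941, but the first principal component, with 28.3% of the variance, put MTAP+/- R1, R3 and R4 (-24.91 to -23.43) beside MTAP+/+ R4 (-23.56) and apart from MTAP+/- R2 (35.57) and MTAP+/+ R1, R2 and R3 (3.58 to 31.30). The second principal component, with 22.0% of the variance, did not overlap between the genotypes. It ran from -44.12 to -4.03 in MTAP+/- and from 11.25 to 29.47 in MTAP+/+ livers. No batch or time of collection was given in the sources used here.

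Both metallothioneins were higher in every MTAP+/- liver, but by very unequal amounts. Mt1 (probe set 1422557_s_at) read 8.92, 10.67, 7.79 and 11.26 in MTAP+/- R1 to R4, against 6.75, 5.97, 6.83 and 6.49 in MTAP+/+ R1 to R4. The groups did not overlap, yet MTAP+/- R3 was only 1.94-fold above the highest MTAP+/+ liver. The mean was 9.66 ± 1.59 in MTAP+/- and 6.51 ± 0.39 in MTAP+/+ livers (SD, n = 4 each), a log2 difference of 3.15 ± 0.62 (SE) or 8.88-fold, with a 95% interval of 3.41-fold to 23.1-fold. By limma this had an unadjusted p of 0.000423 and an adjusted p of 0.181 over all probe sets, and the exact permutation test gave 0.0286, the smallest value that 4 against 4 allows.

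Mt2 (1428942_at), the neighbouring metallothionein, read 7.34, 8.99, 6.55 and 10.19 in MTAP+/- R1 to R4, against 6.09, 5.48, 5.92 and 5.50 in MTAP+/+ R1 to R4. The order of the MTAP+/- livers was the same as for Mt1, with R4 highest, then R2, R1 and R3. The mean was 8.27 ± 1.64 in MTAP+/- and 5.75 ± 0.30 in MTAP+/+ livers (SD, n = 4 each), a log2 difference of 2.52 ± 0.63 (SE) or 5.74-fold, with a 95% interval of 2.17-fold to 15.1-fold. Its adjusted p from limma was 0.304 and its exact permutation p 0.0286. Neither metallothionein passed the threshold of 0.05 over all probe sets.

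The spread within MTAP+/- livers was itself large. From the lowest to the highest MTAP+/- liver Mt1 spanned 11.1-fold and Mt2 12.5-fold, while the MTAP+/+ livers spanned 1.82-fold for Mt1 and 1.52-fold for Mt2. Limma uses a common spread for both genotypes, drawn toward the spread of all probe sets. Its intervals for these 2 genes thus mix a wide group, a narrow group and that general spread. With the trend and robust settings of limma, the unadjusted p was 0.00351 for Mt1 and 0.0117 for Mt2, against 0.000423 and 0.00234 without them. Whether the spreads differ was not tested.

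The second Mt1 probe set (1451612_at) did not show the same separation. It read 4.33, 4.44, 4.23 and 4.70 in MTAP+/- R1 to R4, against 4.48, 4.16, 4.08 and 3.77 in MTAP+/+ R1 to R4, close to the array medians of 3.92 to 3.98. The groups overlapped, and the log2 difference was 0.30 ± 0.15 (SE; limma adjusted p = 0.649). Its MTAP+/- livers nevertheless stood in the same order as at the brighter probe set. The suffix of 1422557_s_at marks probes that may match several transcripts, so a share of that signal from another metallothionein cannot be told apart. The plot of signals per liver shows the metallothioneins beside the exporters.

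**Figure D1:**
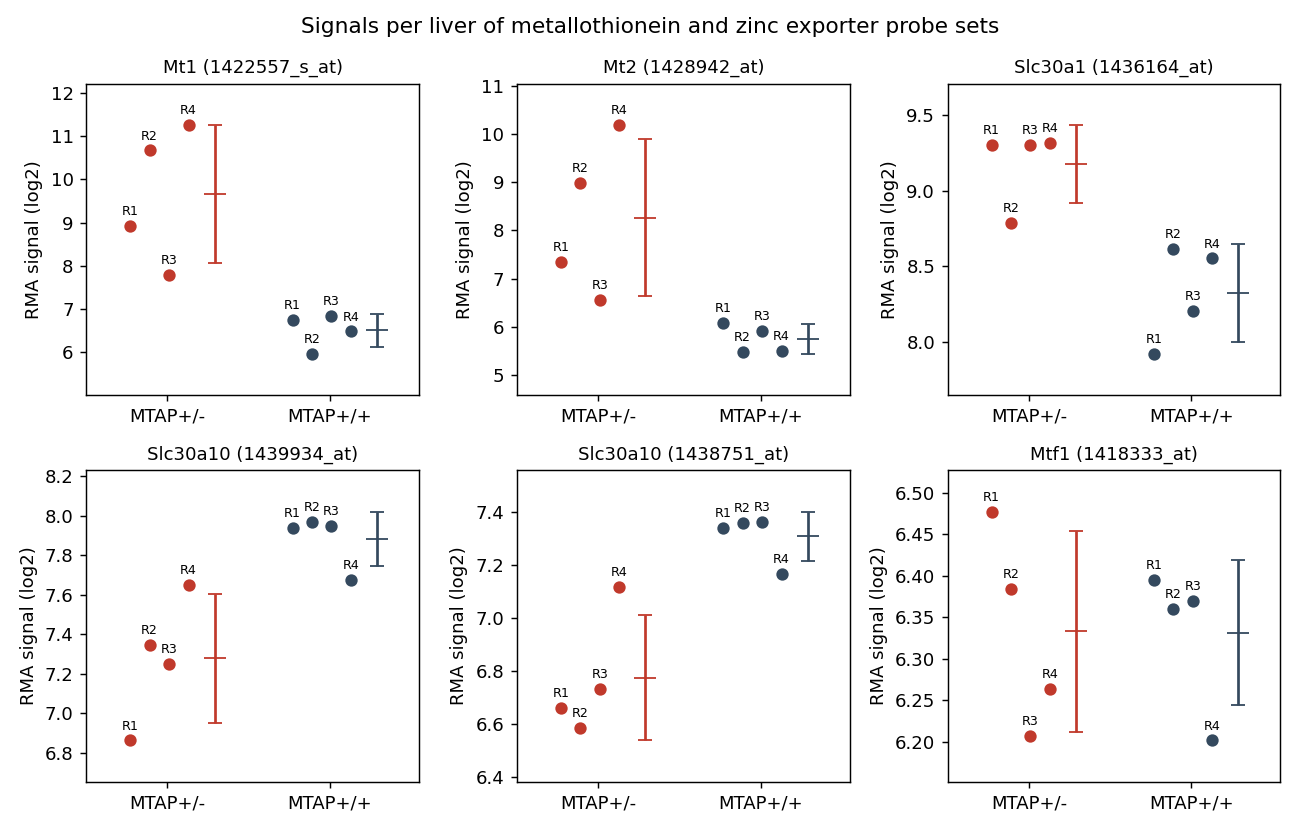
RMA signals (log2, y axis) of 6 probe sets in each of 4 MTAP+/- livers (red, left) and 4 MTAP+/+ livers (dark, right), with the mean and SD beside each group and the replicate number over each point. Mt1 and Mt2 are scattered widely in MTAP+/- livers and lie above every MTAP+/+ liver, Slc30a1 lies above, Slc30a10 lies below, and Mtf1 overlaps.

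Mtf1, which encodes the zinc-sensing activator of the metallothionein genes, overlapped between the genotypes at all 5 of its probe sets. The brightest (1418333_at) read 6.48, 6.38, 6.21 and 6.26 in MTAP+/- R1 to R4, against 6.39, 6.36, 6.37 and 6.20 in MTAP+/+ R1 to R4. These values overlapped throughout, with a log2 difference of 0.0016 and a 95% interval of -0.21 to 0.22. At the other 4 probe sets the log2 differences ran from -0.13 to -0.0021, and the limma adjusted p of the 5 ran from 0.799 to 0.997. These are transcript signals, which do not report the zinc-dependent entry of the protein into the nucleus.

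Slc30a1, the zinc exporter of the cell membrane and a further known target of Mtf1, was higher in every MTAP+/- liver at both probe sets. At 1436164_at it read 9.30, 8.79, 9.30 and 9.32 in MTAP+/- R1 to R4, against 7.92, 8.62, 8.21 and 8.55 in MTAP+/+ R1 to R4. The mean was 9.18 ± 0.26 in MTAP+/- and 8.32 ± 0.32 in MTAP+/+ livers (SD, n = 4 each), a log2 difference of 0.85 ± 0.18 (SE) or 1.81-fold, with a limma adjusted p of 0.193 and an exact permutation p of 0.0286. The other MTAP+/- livers read between 9.30 and 9.32, and only R2 came near the highest MTAP+/+ liver.

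Within MTAP+/- livers Slc30a1 did not follow the metallothionein order. MTAP+/- R2, which had the second highest Mt1 signal, had the lowest Slc30a1 signal of its genotype, and R3, lowest in Mt1, was level with R1 and R4 in Slc30a1. The dimmer probe set 1422786_at read 5.57, 5.71, 5.78 and 5.57 in MTAP+/- R1 to R4, against 5.50, 5.52, 5.45 and 5.50 in MTAP+/+ R1 to R4. Here the groups were apart by only 0.04, and the log2 difference was 0.17 (95% interval -0.03 to 0.36, limma adjusted p = 0.67).

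Slc30a10, an exporter known for carrying manganese out of hepatocytes, was lower in every MTAP+/- liver at both probe sets. At 1439934_at it read 6.86, 7.35, 7.25 and 7.65 in MTAP+/- R1 to R4, against 7.94, 7.97, 7.95 and 7.67 in MTAP+/+ R1 to R4. The groups met almost at R4, where the MTAP+/- liver lay 0.02 below the MTAP+/+ liver. The mean was 7.28 ± 0.33 in MTAP+/- and 7.88 ± 0.14 in MTAP+/+ livers (SD, n = 4 each), a log2 difference of -0.61 ± 0.16 (SE; limma adjusted p = 0.319, exact permutation p = 0.0286).

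The other Slc30a10 probe set (1438751_at) gave a like picture. It read 6.66, 6.58, 6.73 and 7.12 in MTAP+/- R1 to R4, against 7.34, 7.36, 7.36 and 7.17 in MTAP+/+ R1 to R4. The log2 difference was -0.53 ± 0.12 (SE; limma adjusted p = 0.253). At both probe sets R4 was the highest liver of the MTAP+/- group and the lowest of the MTAP+/+ group.

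Among the importers, Slc39a14, which brings zinc and other metals into hepatocytes and is known to be induced by IL-6 in mouse liver, was not shown to differ. Its brightest probe set (1427035_at) read 8.53, 9.01, 8.73 and 8.45 in MTAP+/- R1 to R4, against 8.32, 8.47, 8.41 and 8.53 in MTAP+/+ R1 to R4. MTAP+/- R1 and R4 lay below the highest MTAP+/+ liver, and R4, the liver with most Mt1, was the lowest of its genotype. The log2 difference was 0.25 (95% interval -0.04 to 0.53, limma adjusted p = 0.652), and the other 3 probe sets lay between -0.05 and 0.17.

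Slc39a4, the importer best known for taking up dietary zinc in the gut, read 8.14, 8.46, 8.63 and 8.45 in MTAP+/- R1 to R4, against 9.06, 8.38, 9.02 and 8.60 in MTAP+/+ R1 to R4. The MTAP+/+ livers were the more scattered, and MTAP+/+ R2 and R4 lay within the MTAP+/- range. The log2 difference was -0.34 (95% interval -0.71 to 0.03, limma adjusted p = 0.627).

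Slc39a10, a zinc importer of the cell membrane, was lower in every MTAP+/- liver at its dimmer probe set only. That probe set (1439041_at) read 3.66, 3.34, 3.50 and 3.44 in MTAP+/- R1 to R4, against 3.70, 3.78, 3.92 and 3.72 in MTAP+/+ R1 to R4. Its log2 difference was -0.29 ± 0.10 (SE; limma adjusted p = 0.468) at signals below the array medians. The brighter one (1433751_at) read 4.69, 4.87, 5.79 and 5.29 in MTAP+/- R1 to R4, against 5.45, 5.30, 5.53 and 5.42 in MTAP+/+ R1 to R4, and overlapped (log2 difference -0.27, 95% interval -0.72 to 0.19).

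Slc39a8, a carrier of zinc and manganese, and Slc31a1, the copper importer of the cell membrane, overlapped between the genotypes at both probe sets each. Slc39a8 lay between 7.71 and 7.89 in MTAP+/- and between 7.51 and 7.97 in MTAP+/+ livers at its brighter probe set, with log2 differences of -0.03 and 0.09. Slc31a1 lay between 8.90 and 9.21 in MTAP+/- and between 8.54 and 9.14 in MTAP+/+ livers at its brighter probe set, with log2 differences of 0.11 and 0.19.

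Over all 10 genes, 0 of the 23 probe sets passed an adjusted p of 0.05, against 0.0355% of all probe sets tested (16 of 45037). At an unadjusted limma p under 0.05 there were 3 higher (Mt1, Mt2 and Slc30a1) and 3 lower (both of Slc30a10 and Slc39a10), which is 13% of the 23 in each direction, against 4.56% of all probe sets higher and 3.85% lower. Every MTAP+/- liver lay above every MTAP+/+ liver at 4 of the 23 (17.4%), against 2.12% of all probe sets, and below at 3 (13%), against 2.22%. Several of these probe sets belong to the same gene, so they are no separate observations. The median log2 difference of the 23 was -0.0021, against -0.01 over all probe sets, with 11 higher and 12 lower. The other 17 probe sets, those with an unadjusted p of 0.05 or more, lay between -0.34 and 0.30. The plot of all 23 differences shows the estimates of Mt1 (1422557_s_at) and Mt2 to the right of all others, with wide intervals. The interval of Mt2 (1.12 to 3.92) overlaps that of Slc30a1 (0.47 to 1.24 at 1436164_at). The other Mt1 probe set (1451612_at) lies at 0.30.

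**Figure D2:**
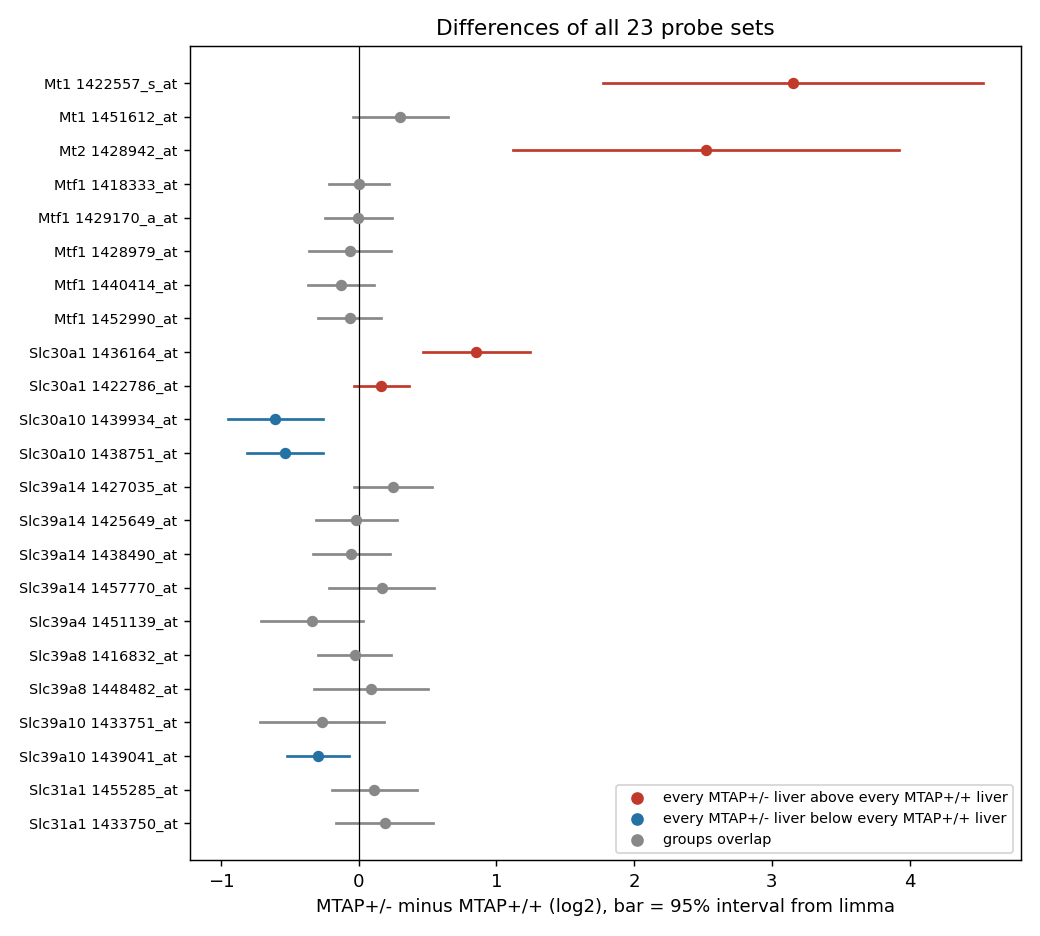
Log2 difference, MTAP+/- minus MTAP+/+ (x axis), of each of the 23 probe sets (rows), with its 95% interval from limma. Points in red or blue mark probe sets at which the groups of 4 livers did not overlap. Mt1 (3.15) and Mt2 (2.52) lie farthest from 0, followed by Slc30a1 (0.85) and the 2 probe sets of Slc30a10 (-0.61 and -0.53).

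Further metallothioneins and zinc transporters overlapped between the genotypes at every gene. Each gene was read at its brightest probe set. Over all 18193 genes read so, 0.0385% passed an adjusted p of 0.05, 4.47% were higher and 4.89% lower at an unadjusted limma p under 0.05, and 1.95% lay above and 2.7% below in every MTAP+/- liver, with 45.3% higher and a median log2 difference of -0.02. Of 20 such genes 0 passed an adjusted p of 0.05, and at an unadjusted limma p under 0.05 there were 0 higher and 1 lower. That gene was Slc39a7, which releases zinc from the endoplasmic reticulum, at 7.28, 7.52, 7.45 and 7.08 in MTAP+/- R1 to R4, against 7.99, 7.96, 7.44 and 7.80 in MTAP+/+ R1 to R4 (log2 difference -0.46, limma adjusted p = 0.413). The transporters Slc30a2, Slc30a6 and Slc39a6 came next by p, with log2 differences of 0.18, 0.24 and 0.15 and limma adjusted p-values of 0.683 to 0.726. Mt3 and Mt4, the metallothioneins of brain and of stratified epithelia, had log2 differences of 0.02 and 0.04. Mt3 read between 3.91 and 4.18, close to the array medians of 3.92 to 3.98. Mt4 (2.43 to 2.71) and, among others, Slc30a2 (3.02 to 3.41) lay below these medians, where an overlap says little. The median of the 20 was 0.04, with 14 of 20 (70%) higher.

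Copper handling genes, 12 in number, included 0 past an adjusted p of 0.05, and 1 higher and 2 lower at an unadjusted limma p under 0.05, against 4.47% higher and 4.89% lower over all genes (median log2 difference -0.05). Sco2, which helps deliver copper to cytochrome c oxidase, was lower in every MTAP+/- liver, as were 2.7% of all genes, at 8.77, 8.94, 8.84 and 8.97 in MTAP+/- R1 to R4, against 9.40, 9.51, 9.20 and 9.17 in MTAP+/+ R1 to R4 (log2 difference -0.44, limma adjusted p = 0.277). Commd1, a protein of copper export, was at -0.49, Ccs, the copper chaperone of superoxide dismutase, at -0.25, and Mtf2, a Polycomb-associated protein that was once named as a metal response factor, at 0.30, with limma adjusted p-values of 0.493, 0.66 and 0.591. At an unadjusted limma p under 0.05, Mtf2 was the 1 higher gene of this list, and Sco2 and Commd1 were the 2 lower. Atp7b, the copper exporter of hepatocytes, was at 0.04 and Cp, the copper-carrying plasma protein ceruloplasmin, at 0.23.

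Metallothionein genes also answer to IL-6, and acute phase genes were read in the same livers. Of 20 genes 0 passed an adjusted p of 0.05, and 3 were higher and 0 lower at an unadjusted limma p under 0.05, against 4.47% and 4.89% of all genes. The median log2 difference was 0.18 with 17 of 20 (85%) higher, against -0.02 and 45.3% over all genes. The mean of the serum amyloid genes Saa1, Saa2 and Saa3 and of Lcn2 was 7.71, 8.90, 10.55 and 11.66 in MTAP+/- R1 to R4, against 9.51, 7.06, 7.80 and 7.44 in MTAP+/+ R1 to R4. Within the MTAP+/+ livers Mt2 stood in the same order as this mean, with R1 highest, then R3, R4 and R2. Its R4 (5.50) and R2 (5.48) were nearly level, and Mt1 stood in another order, with R3 (6.83) above R1 (6.75). Within the MTAP+/- livers R4 was highest in Mt1, Mt2 and this mean, but the order of the others differed. MTAP+/- R3 had the second highest serum amyloid mean and the lowest Mt1 of its genotype. MTAP+/- R1 lay below MTAP+/+ R1 in the serum amyloid mean, and read 8.92 for Mt1, against 6.75 in MTAP+/+ R1.

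Single acute phase genes showed further patterns. Socs3, the feedback inhibitor of STAT3, read 8.19, 6.33, 8.91 and 7.37 in MTAP+/- R1 to R4, against 5.88, 6.16, 5.26 and 6.12 in MTAP+/+ R1 to R4 (log2 difference 1.84, limma adjusted p = 0.288). Among the MTAP+/- livers it was highest in R3, the lowest of them in Mt1 and Mt2, and lowest in R2, the second highest for both. Saa3 was at 1.64, Steap4, a metalloreductase, at 0.57, and Hpx, the heme carrier hemopexin, at 0.26. Every MTAP+/- liver lay above every MTAP+/+ liver at 3 of the 20 genes (15%), among them Socs3 and Saa3, against 1.95% of all genes. Below in every MTAP+/- liver lay 0, against 2.7%. The part of an acute phase response in the metallothionein difference was not tested.

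Glucocorticoid-responsive genes, read because glucocorticoids induce metallothioneins, stood on both sides of 0. Of 15 genes 0 passed an adjusted p of 0.05, and 0 were higher and 2 lower at an unadjusted limma p under 0.05, against 4.47% and 4.89% of all genes (median log2 difference 0.07). Tsc22d3, which encodes the glucocorticoid-induced protein GILZ, read 6.41, 7.003, 7.17 and 7.25 in MTAP+/- R1 to R4, against 7.54, 7.14, 8.41 and 7.69 in MTAP+/+ R1 to R4 (log2 difference -0.74, limma adjusted p = 0.472). Fkbp5, a co-chaperone of the glucocorticoid receptor and a widely used target gene, was at -0.005, Cdkn1a at -0.78, Per1 at 0.37 and Zbtb16 at -0.45. The mean of the 15 genes was 7.70 to 8.40 in MTAP+/- and 7.73 to 8.29 in MTAP+/+ livers.

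Genes of oxidant and metal stress were likewise mixed. Of 10 genes 0 passed an adjusted p of 0.05, and 0 were higher and 2 lower at an unadjusted limma p under 0.05, against 4.47% and 4.89% of all genes (median log2 difference -0.01). Hspa1b, an inducible heat shock chaperone, read 8.23, 7.21, 8.31 and 7.88 in MTAP+/- R1 to R4, against 8.76, 8.40, 9.36 and 9.45 in MTAP+/+ R1 to R4 (log2 difference -1.09, limma adjusted p = 0.318). Its neighbour Hspa1a was at -0.44, at signals of 2.59 to 3.54, below the array medians of 3.92 to 3.98. These 2 heat shock genes were the 2 lower ones. Hmox1, the heme oxygenase that heme and metals induce, read 5.49, 7.63, 5.68 and 6.65 in MTAP+/- R1 to R4, against 6.03, 5.83, 6.04 and 5.52 in MTAP+/+ R1 to R4 (log2 difference 0.51, limma adjusted p = 0.781). R2 and R4, the MTAP+/- livers highest in Mt1, were also its highest, while R1 and R3 lay within or below the MTAP+/+ range. Txnrd1, the thioredoxin reductase, was at -0.23.

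Macrophage markers differed among themselves. Of 10 such markers 7 were higher (70%, against 45.3% of all genes), with a median log2 difference of 0.46, against -0.02. At an unadjusted limma p under 0.05, 5 were higher (50%, against 4.47%), and 0 passed an adjusted p of 0.05. The 5 were Mpeg1, Cd5l, Cd68, Adgre1 and Timd4, with log2 differences of 0.65, 0.42, 0.545, 0.78 and 0.50. Mpeg1 and Adgre1, 2 of 10 (20%), lay above in every MTAP+/- liver, against 1.95% of all genes. Adgre1, a surface receptor of mature macrophages, read 7.32, 8.93, 7.29 and 7.83 in MTAP+/- R1 to R4, against 7.12, 6.76, 7.24 and 7.14 in MTAP+/+ R1 to R4. R2 and R4 were its highest livers, as for Mt1, but R2 was above R4. The mean of the 10 markers was 7.79 to 8.31 in MTAP+/- and 7.61 to 8.01 in MTAP+/+ livers. In MTAP+/- R1 this mean (7.79) lay below that of MTAP+/+ R1, R2 and R3, and the Mt1 signal above theirs. Marco, a scavenger receptor, read 4.73, 9.97, 4.84 and 6.44 in MTAP+/- R1 to R4, against 5.27, 7.60, 5.55 and 4.71 in MTAP+/+ R1 to R4. Clec4f, a marker of resident Kupffer cells, was lowest of all in MTAP+/- R2, at 7.06 against 9.005 to 9.45 in the other MTAP+/- livers and 8.85 to 9.13 in MTAP+/+ livers. Cd163 and Vsig4, a scavenger receptor and a complement receptor of resident macrophages, were also lowest in MTAP+/- R2, at 4.33 and 8.20, with log2 differences of -0.98 and 0.05, and Csf1r, the receptor that macrophages need for survival, was at -0.02. That liver, R2, also stood alone on the second principal component (-44.12), and without it the log2 difference was 2.81 for Mt1 and 2.28 for Mt2. The part of macrophages in the metallothionein difference was not tested.

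Markers of other cell types had median log2 differences between -0.13 (bile duct cells) and 0.15 (lymphocytes), against 0.46 for the macrophage markers. Of 8 neutrophil markers 0 passed an unadjusted limma p under 0.05, against 4.47% of all genes higher and 4.89% lower. S100a8 and S100a9 had log2 differences of 0.71 and 0.74 (limma adjusted p = 0.682 and 0.699), and of the 8 markers 5 were higher and 3 lower. The mean of the 8 was 4.08 to 4.68 in MTAP+/- and 3.92 to 4.32 in MTAP+/+ livers. Markers of sinusoidal endothelium overlapped between the genotypes, at 6.58 to 6.99 in MTAP+/- and 6.51 to 6.73 in MTAP+/+ livers (7 genes). So did those of stellate cells, at 6.71 to 6.85 in MTAP+/- and 6.52 to 6.87 in MTAP+/+ livers (8 genes), and of adipocytes, at 3.57 to 3.86 in MTAP+/- and 3.64 to 3.78 in MTAP+/+ livers (2 genes). Lyve1, of the endothelium, had a log2 difference of 0.81 (limma adjusted p = 0.63). Among the stellate markers Hgf (log2 difference 0.49) alone had an unadjusted limma p under 0.05 (12.5% higher, against 4.47% of all genes). Higher were 5 of the 7 endothelial and 6 of the 8 stellate markers. The mean of 6 lymphocyte markers was 4.08 to 4.27 in MTAP+/- and 3.97 to 4.07 in MTAP+/+ livers, without overlap, but close to the array medians of 3.92 to 3.98. All 6 were higher (100%, against 45.3% of all genes). Nkg7 (log2 difference 0.32, limma adjusted p = 0.409) alone had an unadjusted limma p under 0.05 (16.7%, against 4.47%). It also lay above in every MTAP+/- liver, as did 1.95% of all genes. The mean of 5 exocrine pancreas markers was 5.16 to 5.43 in MTAP+/- and 5.44 to 5.54 in MTAP+/+ livers. Only Cela1 (log2 difference -0.55) of the 5 had an unadjusted limma p under 0.05 (20% lower, against 4.89% of all genes). Markers of bile duct cells (5 genes) overlapped, at 3.91 to 4.03 in MTAP+/- and 4.02 to 4.20 in MTAP+/+ livers.

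A score of clock gene expression did not overlap between the genotypes, and 1 of the 2 Slc30a10 probe sets ranked the livers much as it did. This clock score, the mean of Dbp, Per1, Per2, Per3, Nr1d1, Nr1d2 and Tef minus the mean of Arntl, Npas2, Clock, Nfil3 and Cry1, was 2.36, 2.18, 2.32 and 1.22 in MTAP+/- R1 to R4, against -0.01, 0.51, 0.29 and 0.98 in MTAP+/+ R1 to R4. Ranked from the highest score to the lowest, the livers were MTAP+/- R1, R3, R2 and R4 and then MTAP+/+ R4, R2, R3 and R1. The Slc30a10 probe set 1439934_at ranked the first 5 of these in the same order from low to high. The last 3 lay between 7.94 and 7.97 and ran in the opposite order, with MTAP+/+ R1 lowest, then R3 and R2. At the probe set 1438751_at MTAP+/- R2 (6.58) was the lowest, before R1 (6.66), R3 (6.73) and R4 (7.12), so only the places of the 2 R4 livers matched the score.

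The 2 R4 livers had the closest clock scores across the genotypes, 1.22 in MTAP+/- R4 and 0.98 in MTAP+/+ R4. Between them Slc30a10 differed by -0.02 and -0.05 at its 2 probe sets. Slc30a1 (1436164_at) differed by 0.76 between these livers, Mt1 by 4.77 and Mt2 by 4.69. Each of these is a difference between 2 livers, with no replicate. With the clock score as a covariate in limma, the log2 difference of Mt1 was 5.58 and of Mt2 5.46, that of Slc30a1 0.57, and those of Slc30a10 0.05 and -0.02. The clock score of the genotypes did not overlap in these 8 livers, so the 2 are hard to separate in that fit, and no probe set of the whole table passed an adjusted p of 0.05 in that fit. The panels that set Mt1 and Slc30a10 against other measures show these contrasts liver by liver.

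**Figure D3:**
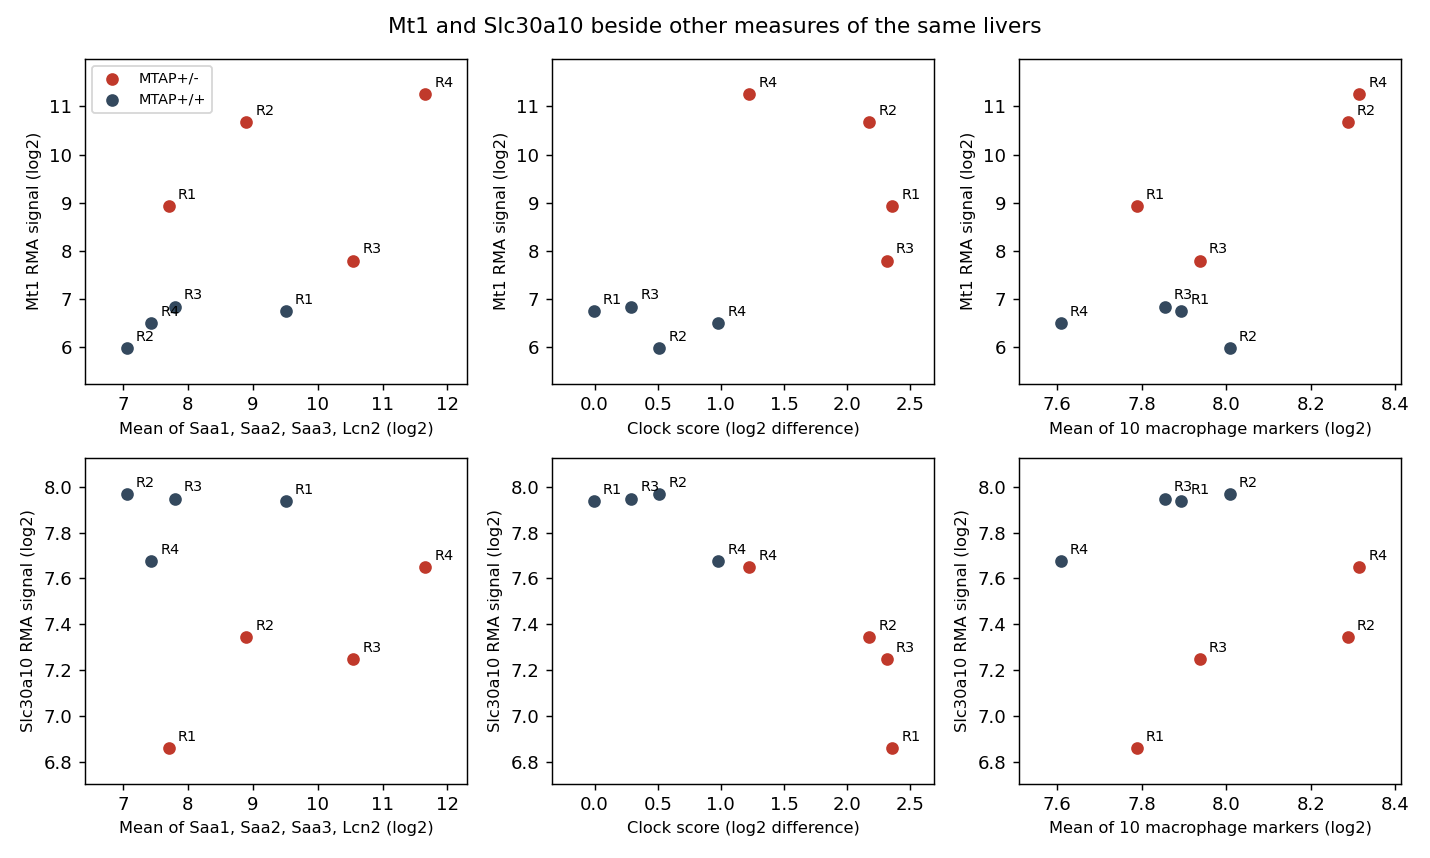
RMA signal (log2, y axes) of Mt1 (1422557_s_at, upper row) and Slc30a10 (1439934_at, lower row) in each liver, MTAP+/- in red and MTAP+/+ dark, against the mean of Saa1, Saa2, Saa3 and Lcn2, the clock score and the mean of 10 macrophage markers (x axes, log2). This Slc30a10 probe set is lower where the clock score is higher, except among MTAP+/+ R1, R2 and R3, with the 2 R4 livers side by side. Mt1 of MTAP+/- R1 (8.92) lies above every MTAP+/+ liver at a serum amyloid mean of 7.71.

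The genes whose pattern was most like the metallothioneins were sought over all genes by Pearson's r with the mean of the 3 metallothionein probe sets. Over the 8 livers the closest were Lrtm2 (r = 0.971), Ets1 (0.969), Abi2 (0.964), Sat1 (0.948), Galnt15 (0.944), Erlin1 (0.942), Mpeg1 (0.939), St6gal1 (0.938), P2rx4 (0.931) and Xpo4 (0.93). Spearman's rho of the 10 lay between 0.786 and 0.976. These values describe genes picked from 18193 and carry no p, and the gap between the genotypes is part of each. Without MTAP+/- R2 and R4, the 2 livers farthest from the median, the r of the 10 lay between 0.803 and 0.97. With the genotype means also removed over the remaining 6 livers, it lay between -0.589 (Erlin1) and 0.913 (Abi2), with Ets1 at -0.004. Sat1, whose product acetylates polyamines, read 9.61, 9.86, 9.24 and 10.16 in MTAP+/- R1 to R4, against 8.95, 8.68, 8.94 and 9.21 in MTAP+/+ R1 to R4, in the metallothionein order among the MTAP+/- livers. Mpeg1, a pore-forming protein of macrophages, read 8.93, 9.64, 8.90 and 9.35 in MTAP+/- R1 to R4, against 8.68, 8.50, 8.62 and 8.41 in MTAP+/+ R1 to R4. After each genotype's mean was removed, the closest were Il21r (r = 0.975), Fabp4 (0.968), Lix1l (0.96), Hsd11b2 (0.952), Tox2 (0.951), Kcnv1 (0.946), Esm1 (0.943), Sbno2 (0.94), Lrtm2 (0.938) and Tbpl1 (0.934). Lrtm2 alone stood in both lists. Its signals (2.68 to 3.02) lay below the array medians of 3.92 to 3.98, as did those of Kcnv1 and Hsd11b2. Without MTAP+/- R2 and R4, and with the means of the remaining 6 livers removed, the r of the 10 in this second list lay between 0.152 and 0.948. Without removal of the means it was below 0 for 8 of them (Il21r -0.571, Tbpl1 -0.825). Of the members themselves, Slc30a1 had an r of 0.586 over the 8 livers and -0.375 with the genotype means removed, and Slc30a10 -0.431 and 0.676.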

How the data were processed

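Liver RNA of 8 mice was read on Affymetrix arrays. Each deposited value is a log2 signal of 1 probe set, which the authors obtained with RMA according to the submitters' processing notes (version and settings not given in the sources used here). That the scale is log2 was judged from the range of the values. They were used as deposited, without 64 control probe sets. Of the 45037 others, the platform annotation gave 1 symbol to 34945, several to 932 and none to 9160. Genotypes, taken from the titles, were compared over all probe sets with limma 3.58.1 (lmFit, eBayes, two-sided) in R 4.3.3, with Benjamini-Hochberg adjustment and a threshold of 0.05. Single probe sets were also compared by exact two-sided permutation over 70 assignments. The p-values treat the 4 mice of a genotype as independent, and the number of arrays limits their precision.

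The members, lists, markers, motifs, alternatives and the clock score were chosen with earlier results of these data known. Named were all members, Mtap, the 4 genes of smallest p in each list, as far as printed, and the 10 genes most like the metallothioneins by each measure. Mt3, Mt4, Atp7b, Cp, Fkbp5, Clec4f, Marco, Vsig4, Csf1r, Cd163, Timd4, Cela1 and the serum amyloid genes fall outside that rule. They were picked with their values in view. The fit was tested on simulated data before use.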

Additional observations from a re-analysis of the deposited data

Results flagged for a closer look

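Among 46 groups of 4 livers, 5 had a liver far from the other 3 (the gap to the nearest exceeded the limit of Dixon's test), where chance alone gives about 1 in 20. MTAP+/- R2 stood at 8.79 for Slc30a1 (1436164_at), against 9.30 to 9.32 in the other MTAP+/- livers, and at 3.78 for Slc39a14 (1457770_at), against 2.99 to 3.09. MTAP+/+ R4 stood at 7.67 for Slc30a10 (1439934_at), against 7.94 to 7.97 in the other MTAP+/+ livers, and at 7.17 for its other probe set (1438751_at), against 7.34 to 7.36. MTAP+/+ R1 stood at 7.51 for Slc39a8 (1416832_at), against 7.94 to 7.97.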

How the results depend on the processing

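Across 18 alternatives 0 of the 23 probe sets passed an adjusted p of 0.05 in any fit, and 0 passed 0.1 in the fit reported above. With the replicate number as a block (replicate block) Mt1 stayed at 3.15 (limma adjusted p = 0.132) and Mt2 at 2.52 (0.211); the block changed no call of a member, and all calls numbered 25, against 16 without it. Same-numbered livers correlated at -0.074, 0.224, 0.005 and 0.227 in their deviations from the genotype means, so the numbers were not taken to pair them. Leaving out each liver in turn gave 2.62 to 3.77 for Mt1 (adjusted p 0.0694 to 0.472) and 1.88 to 3.09 for Mt2, the lowest without MTAP+/- R4 and the highest without MTAP+/- R3. Slc30a1 (1436164_at) lay between 0.57 and 0.98 and was lowest with the clock score as covariate. That covariate moved Mt1 to 5.58 and Mt2 to 5.46, and turned Slc30a10 (1439934_at) to 0.0526, against -0.61 (other probe set -0.02); the cause was not tested. Of the 23 probe sets 9 kept their sign under all alternatives run on them, among them both metallothioneins and both Slc30a1 probe sets. The filter on dim signals kept 18 of the 23, and leaving out cross-hybridising kinds removed the brighter Mt1 probe set. All probe sets past the threshold numbered 0 with the clock score, 42 with the 3' minus 5' control signal as covariate and 5 to 21 with 1 liver left out (5 without MTAP+/- R1), against 16.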
